A study of Mus musculus with 5 samples.

Results

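TALE homeobox genes encode transcription factors whose DNA-binding homeodomain is lengthened by a short loop of extra amino acids. The set described here holds 9 genes, Meis1, Meis2, Meis3, Pbx2, Pbx3, Pbx4, Pknox1, Pknox2 and Tgif1. Its members were all probe sets, other than array controls, to which the platform annotation gives exactly 1 gene symbol and that symbol is one of the 9. They came to 21 of 45037 probe sets, and to 9 of 18193 genes that have such a probe set. The set was selected on the signal of Meis1, which was already known to be lower in the KDM7 knockdown lines of these same data. Its difference between knockdown and control lines is therefore given as a description, with no test, and so are those of the other members in that comparison.

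RNA of 5 lines was hybridised to 1 Affymetrix array each, and all 5 are Neuro2A cells, which were established from a mouse neuroblastoma. The 3 control lines were the parental cells, cells transfected with an empty vector and cells transfected with a vector for knockdown of EGFP. The 2 knockdown lines carried different vectors against KDM7, the histone demethylase encoded by Kdm7a, whose effect on gene expression the study set out to examine. The 4 transfected lines are described as stable lines, and the labels do not say whether each is a clone or a pool or how long it was grown. Lines of the same arm were treated as replicates, so that errors and p-values measure the spread between these 5 arrays, and each line has 1 measurement.

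The array values are signals on a linear scale. A probe set was kept for testing when its geometric mean signal over the 5 lines reached the median of all probe sets, a signal of 40.5, which kept 22519. Kdm7a itself, by probe set 1456150_at, had control signals of 487 (parental), 611 (empty vector) and 665 (EGFP knockdown), and KDM7 knockdown lines 1 and 2 were at 130 and 136. Of 14 markers of neuroblastoma and sympathoadrenal cells, 12 were annotated and 10 were kept. Phox2a, Hand2 and Stmn2 had overlapping groups, whereas Gata3 and Chga were lower and Chgb was higher in both knockdown lines than in all controls. Gata3, a transcription factor of the sympathoadrenal lineage, was at 554, 224 and 585 in the control lines and at 178 and 95.3 in the knockdown lines (log2 difference -1.68, SE 0.45). The granins Chga and Chgb had -0.56 (SE 0.22) and 0.58 (SE 0.13). Of the 10 markers 0 passed limma's test and 3, these genes, had an unadjusted p under 0.05. Of all kept probe sets 4.99% had such a p. The marker list was made with earlier results of these data known, so its count is a description. Both knockdown lines were below every control line in 10.2% of all kept probe sets and above in 12.6%. The part of Gata3, Chga and Chgb in the Meis1 difference was not tested. Th, the rate-limiting enzyme of catecholamine synthesis, was at 22.1 to 68.6 and Nefl, a neurofilament subunit, at 4.94 to 18.2, both under the filter. The summed signal of the 10, carried by Stmn2, Hand2, Chgb and Gap43, was 52986 to 55019 in the control lines and 53249 and 60541 in the knockdown lines. Of 7 mesenchymal, 5 glial and 5 blood cell markers, Col1a2, Pdgfra and Mbp were kept, with signals up to 115.

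MEIS and PKNOX proteins bind DNA together with PBX proteins, and this pairing helps to keep PBX in the nucleus and to choose binding sites, often with a HOX protein as the further partner. TGIF proteins belong to the same class but act mainly as repressors, among others of genes controlled by TGF-beta and retinoic acid signalling. MEIS and PBX factors are known for their part in patterning the brain and in the development of neural crest derivatives, the lineage from which neuroblastoma arises.

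The promoter of Meis1 is shown first because Meis1 is the member with the largest difference among the kept probe sets. RefSeq promoter windows of 300 bases in GRCm38.p6 were found for 6 of the 9 genes, and Pbx3, Pknox1 and Pknox2 had none in that table. The Meis1 window lies at chr11:19018920-19019219 on the minus strand and is printed with its CpG dinucleotides in capitals.
Meis1: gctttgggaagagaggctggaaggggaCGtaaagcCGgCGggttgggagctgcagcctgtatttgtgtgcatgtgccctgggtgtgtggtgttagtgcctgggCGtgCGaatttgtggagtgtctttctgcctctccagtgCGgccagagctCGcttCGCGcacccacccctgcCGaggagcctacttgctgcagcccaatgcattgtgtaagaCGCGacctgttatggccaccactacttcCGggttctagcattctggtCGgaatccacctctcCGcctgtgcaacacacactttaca
It holds 15 CpG dinucleotides, against a median of 7 over 32851 windows of the same length, and 65.4% of those windows hold fewer. The windows of Meis2, Meis3, Pbx2 and Pbx4 hold 13, 21, 29 and 19, and the 5 of Tgif1 hold 2, 15, 23, 22 and 20.

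The hexamer TGACAG, the core of the site that MEIS and PKNOX proteins bind, was searched on both strands of these windows. It is not among the letters of the Meis1, Meis2, Meis3, Pbx2 and Pbx4 windows and is present in 2 of the 5 Tgif1 windows, which belong to different start sites. Over the whole set 2 of 10 windows hold it, and among all 32851 windows 19.2% do. TGACAG contains the reverse complement of TGTCA, the core bound by TGIF proteins, so that a match is shared between both kinds of factor. The Tgif1 matches are shown as 30 bases each with the hexamer in capitals, the first at chr17:70846728-70846757 and the second at chr17:70851188-70851217, both on the minus strand.
Tgif1 match 1: tttaggttcatatctaatTGACAGtcttaa
Tgif1 match 2: gctctctcactcTGACAGcgccgaggtgcg
No binding or chromatin data were analysed, and a match is a description of the sequence.

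Meis1, a MEIS factor with a known role in the survival of sympathetic neurons, had its kept probe set 1450992_a_at at signals of 319 in the parental line, 221 with the empty vector and 306 with EGFP knockdown, the order in which control values are given below. In KDM7 knockdown lines 1 and 2 it was at 95.9 and 132. The groups did not overlap, and the lowest control line was 1.68-fold above the higher knockdown line. The means were 282 ± 53.1 (SD, n = 3) and 114 ± 25.3 (SD, n = 2), a 2.48-fold lower level by mean log2 values (log2 difference -1.31, SE 0.26 from limma). This is the difference on which Meis1 was chosen. In RNA of whole cultures, fewer cells expressing the gene and less RNA per cell cannot be told apart. Of all kept probe sets 0.786% had a log2 difference of at least that size in either direction.

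The line with vector 1 had a log2 difference of -1.54 from the control mean and the line with vector 2 one of -1.08. The difference of line 2 from line 1 was 0.46 (SE 0.42) and did not pass limma's test (adjusted p = 1.00). Within the control arm the empty vector line had the lowest Meis1 signal. The parental line differed from the mean of the empty vector and EGFP knockdown lines by 0.30 on the log2 scale (SE 0.33, adjusted p = 0.730 in limma).

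The other Meis1 probe sets were dim and were left out by the filter. Probe set 1459423_at was at 40.9, 44.1 and 45.0 in the control lines and 30.8 and 37.3 in the knockdown lines. Its groups did not overlap, but the log2 difference was -0.35 with an SE of 0.50 when all probe sets were fitted. Probe set 1443260_at was at 39.4, 59.8 and 46.4 in the control lines, 7.34 in knockdown line 1 and 47.2 in knockdown line 2. Line 2 lay inside the control range there, so the bright probe set's pattern was not repeated by it.

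**Figure D1:**
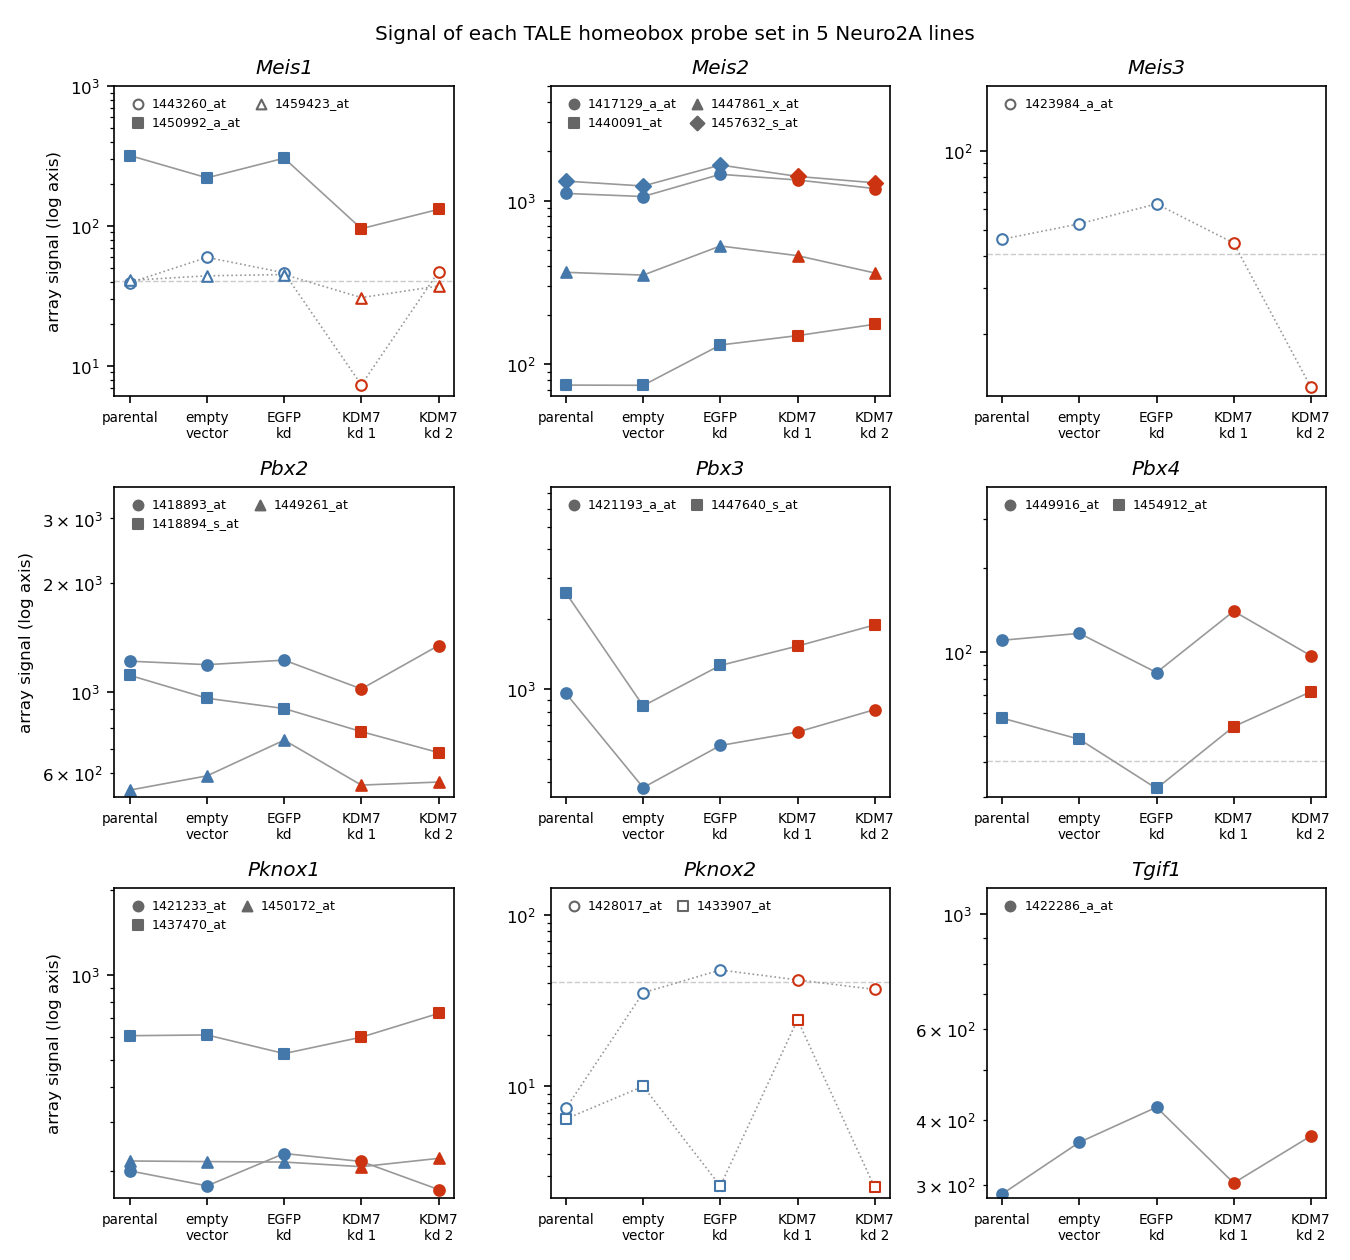
Array signal (log axis, no unit) of all 21 probe sets of the 9 TALE homeobox genes in the 5 Neuro2A lines, control lines in blue and KDM7 knockdown lines in red, kept probe sets filled and dim ones open, with 1 array per point. The grey joining lines only group the points of 1 probe set, and the dashed line marks the filter at 40.5. Meis1 1450992_a_at is lower in both red points, and both Pbx3 probe sets are highest in the parental line and lowest in the empty vector line.

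Meis2, the MEIS paralog used widely in the forebrain and neural crest, gave a different picture. Its brightest probe set 1457632_s_at was at 1313, 1226 and 1647 in the control lines and 1403 and 1283 in the knockdown lines, with a log2 difference of -0.05 (SE 0.17). Probe sets 1417129_a_at (0.08, SE 0.18) and 1447861_x_at (0.00, SE 0.24) had log2 differences as small, and the sign of both turned after median centring, that of 1447861_x_at also after quantile normalization and cyclic loess. In these 3 probe sets the EGFP knockdown line had the highest signal and the empty vector line the lowest, with the knockdown lines between them.

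The remaining Meis2 probe set, 1440091_at, was at 74.7, 74.5 and 131 in the control lines and 150 and 176 in the knockdown lines. The groups did not overlap, with 1.14-fold between knockdown line 1 and the EGFP knockdown line, and the log2 difference was 0.85 (SE 0.32). Its profile over the 5 lines, centred on its mean log2 signal, departed from those of the other Meis2 probe sets by a root mean square of 0.42, 0.46 and 0.48, where those departed from each other by 0.06 to 0.10. The Meis2 probe sets thus disagree, and the files do not say which transcript 1440091_at measures.

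Meis3, by its probe set 1423984_a_at, was dim and left out by the filter. It was at 46.2, 52.8 and 63.0 in the control lines and 44.6 and 12.6 in the knockdown lines. Knockdown line 1 was close to the parental line, and the log2 difference of -1.18 (SE 0.65, all probe sets fitted) was -0.26 without knockdown line 2.

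Among PBX genes, which encode the DNA-binding partners of MEIS and PKNOX, Pbx3 varied most between lines. Probe set 1447640_s_at was at 2597 in the parental line, 847 in the empty vector line and 1267 in the EGFP knockdown line. The KDM7 knockdown lines were at 1534 and 1892, inside the control range. The second probe set, 1421193_a_at, was at 959, 377 and 572 in the control lines and at 654 and 816 in the knockdown lines. Both probe sets put the 5 lines in the same order, from parental through KDM7 knockdown line 2, KDM7 knockdown line 1 and EGFP knockdown to the empty vector line.

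The parental line stood 3.07-fold above the empty vector line by the first Pbx3 probe set and 2.55-fold by the second, and a spread over the 5 lines as wide as the first occurs in 6.14% of kept probe sets. Knockdown against control gave log2 differences of 0.28 (SE 0.40) and 0.31 (SE 0.35), and these became 0.72 and 0.65 without the parental line and -0.09 and -0.02 without the empty vector line. The sign of the Pbx3 difference between knockdown and control thus turned with the control line left out.

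The parental line against the empty vector and EGFP knockdown lines is a comparison that the choice of Meis1 did not use, and it was tested. Pbx3 1447640_s_at was 2.51-fold higher in the parental line (log2 difference 1.33, SE 0.26), as was 1421193_a_at at 2.07-fold (1.05, SE 0.29). Neither passed limma's test, with adjusted p of 0.127 and 0.195. Without the empty vector line 1447640_s_at passed (1.04, adjusted p = 0.0302 in limma), and without the EGFP knockdown line both did (1.62 at 0.00813 and 1.35 at 0.0260), fits in which the spread came from the pair of KDM7 knockdown lines alone. Over all probe sets those fits called 732 and 822, against 26 or 0.115% with all lines.

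Pbx2 is measured by 3 probe sets. Probe set 1418894_s_at was at 1114, 964 and 903 in the control lines and 781 and 684 in the knockdown lines, so that the groups did not overlap (log2 difference -0.44, SE 0.17). The brighter 1418893_at was at 1218, 1192 and 1226 in the control lines and 1022 and 1345 in the knockdown lines, 1 line below and 1 above all controls (-0.05, SE 0.16). Probe set 1449261_at was at 540, 590 and 740 against 557 and 568 (-0.14, SE 0.19), with overlapping groups. The lower level of 1418894_s_at was not repeated by the other Pbx2 probe sets.

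Pbx4 is a PBX gene known mainly from testis. Probe set 1449916_at was at 110, 117 and 84.2 in the control lines and 140 and 96.8 in the knockdown lines. The dimmer 1454912_at, close to the filter, was at 57.7, 48.5 and 32.2 against 53.8 and 71.9. The EGFP knockdown line was the lowest of the 5 by both probe sets, and the groups overlapped in each, with log2 differences of 0.18 (SE 0.29) and 0.47 (SE 0.41). The first was between -0.08 and 0.45 with a line left out, and the second between 0.23 and 0.68.

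Pknox1, also called Prep1, encodes an alternative PBX partner and was among the steadiest members. Probe set 1450172_at stayed between 208 and 222 in all 5 lines, a highest over lowest ratio of 1.07, with a log2 difference of -0.01 (SE 0.19) between knockdown and control. Probe set 1437470_at was at 608, 611 and 525 in the control lines and at 600.5 and 729 in the knockdown lines (0.19, SE 0.18). Probe set 1421233_at was at 201, 178 and 231 against 217 and 172 (-0.06, SE 0.23). In each of the 3 probe sets the groups overlapped or the knockdown lines lay on opposite sides of the controls.

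Its paralog Pknox2 was not shown to be above background. Probe set 1428017_at was at 7.43 in the parental line and between 35.1 and 47.6 in the other 4 lines, and 1433907_at was between 2.56 and 24.4. Both were left out by the filter, and no direction is drawn from them.

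Tgif1, the repressor of the set, had signals of 288, 362 and 423 in the control lines and 302 and 372 in the knockdown lines by its probe set 1422286_a_at. The groups overlapped, with a log2 difference of -0.07 (SE 0.22), and the parental line was the lowest of the 5. Against the vector-carrying controls the parental line was lower by a log2 difference of -0.44 (SE 0.24) that did not pass (adjusted p = 0.461 in limma).

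**Figure D2:**
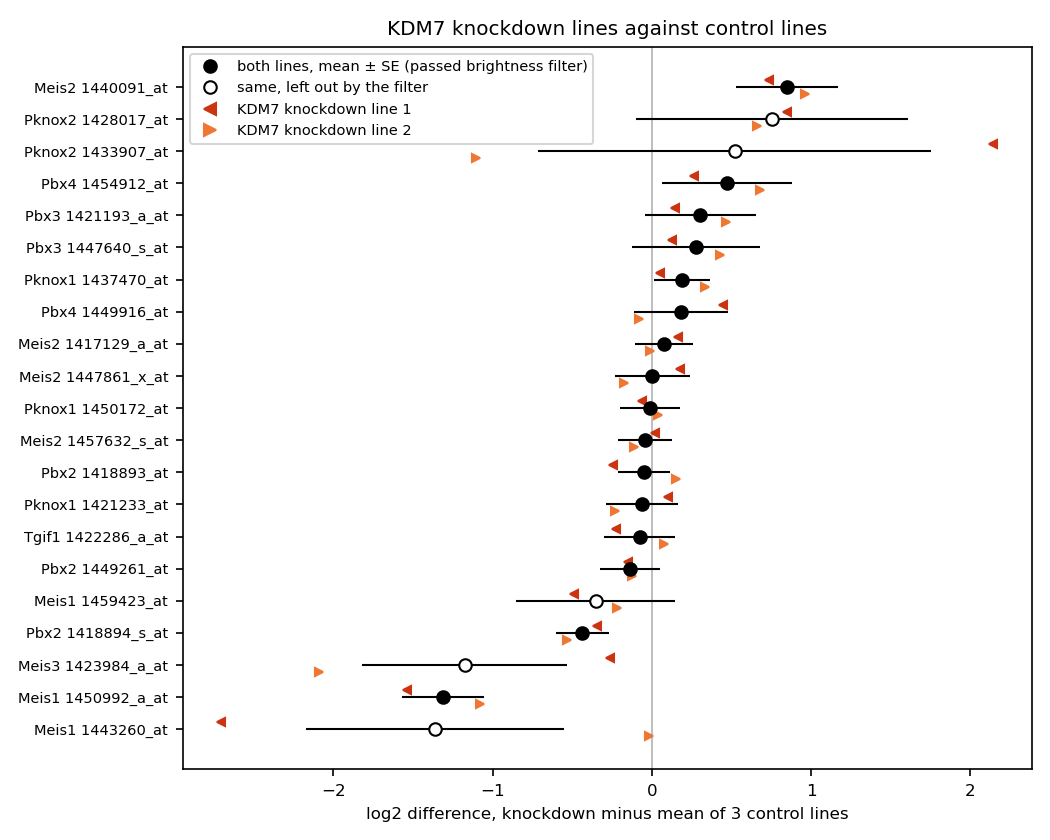
Log2 difference between the KDM7 knockdown lines and the mean of the 3 control lines for all 21 probe sets, ordered by size, with circles for the mean of both lines, bars for the SE from limma and triangles for each knockdown line. Meis1 1450992_a_at lies at -1.31 with both lines on the same side, Meis2 1440091_at at 0.85, and 14 other kept probe sets lie between -0.44 and 0.47.

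Over the 16 kept member probe sets, which cover 7 of the 9 genes, the log2 difference between knockdown and control ran from -1.31 to 0.85 with a median of -0.0042, against a median of 0.03 over all kept probe sets. In 2 of the 16 (Meis1 1450992_a_at and Pbx2 1418894_s_at) the knockdown lines were the 2 lowest of the 5, in 1 (Meis2 1440091_at) the 2 highest and in 13 neither. Over all kept probe sets they were the 2 lowest in 10.2% and the 2 highest in 12.6%. In Pbx3, Pbx4, Pknox1 and Tgif1 no kept probe set separated the groups. Limma called 0 of 22519 probe sets in this comparison (0% at an adjusted p under 0.05, and 1123 or 4.99% at an unadjusted p under 0.05). With the robust option of its variance model it called 2.

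The difference between the KDM7 knockdown lines was the second comparison that the choice of Meis1 did not use. Limma called 1 of 22519 probe sets there (0.00444%) and 0 of the 16 members, with 0 members at an unadjusted p under 0.05, where 1.5% of all probe sets were. The member differences of line 2 from line 1 ran from -0.53 (Pbx4 1449916_at) to 0.46 (Meis1), each with an adjusted p of 1.00. In the comparison of the parental line with the vector-carrying controls 0 members passed and 2, both of Pbx3, had an unadjusted p under 0.05, where 14.4% of all probe sets did. The parental line was the highest of the 5 for 4 of the 16 and the lowest for 2, against 23% and 31.5% over all kept probe sets.

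**Figure D3:**
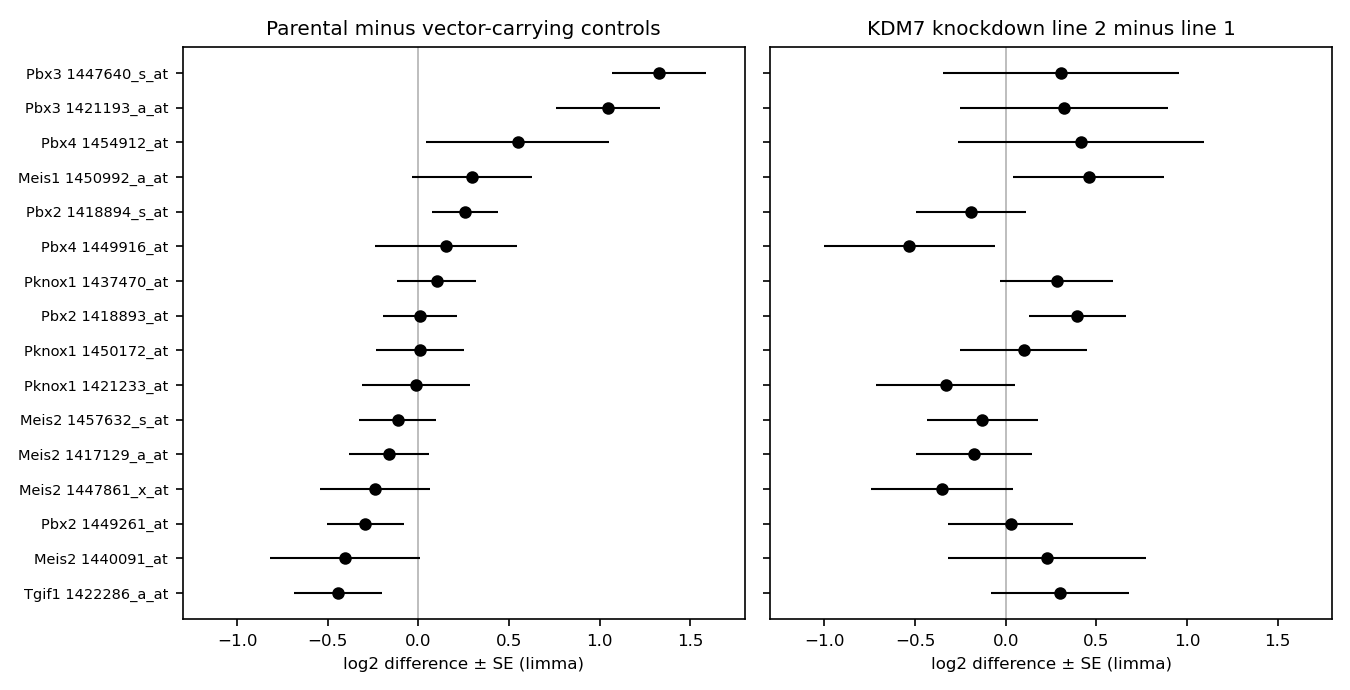
Log2 differences with SE from limma for the 16 kept probe sets, on the left the parental line minus the mean of the empty vector and EGFP knockdown lines, on the right KDM7 knockdown line 2 minus line 1. Both Pbx3 probe sets lie farthest from 0 on the left, at 1.33 and 1.05, while on the right the points run from -0.53 to 0.46.

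Other genes of the class and their partners were taken from fixed lists. Of 8 other TALE homeobox genes 3 were kept, with 0 past limma's test in either direction and 0 at an unadjusted p under 0.05 between knockdown and control (median log2 difference -0.03). Irx5, an Iroquois gene of neural patterning, was at 51.5, 28.0 and 62.3 in the control lines and 65.7 and 78.7 in the knockdown lines (log2 difference 0.68, SE 0.44). Mkx, a regulator of tendon, had -0.08 (SE 0.21). Irx5 was above every control line in both knockdown lines, by a narrow margin over the EGFP knockdown line. Over all kept probe sets 12.6% had that pattern.

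Of 21 listed names of cofactors and partners 17 were annotated, and all of these were kept. Prep1, the other name of Pknox1, was among those without annotation. None passed the test in either direction, and the median log2 difference was -0.02. An unadjusted p under 0.05 in limma was found for 1 of the 17, against 4.99% of all kept probe sets. That gene was Rxra, the retinoid X receptor alpha, to which TGIF proteins bind at retinoid response elements. It was at 204, 168 and 129 in the control lines and 249 and 278 in the knockdown lines (log2 difference 0.68, SE 0.25, adjusted p = 0.908 in limma). Smad3, a transducer of TGF-beta signals that TGIF1 binds as a corepressor, was at 252, 276 and 232 against 169 and 209 (-0.42, SE 0.21). Neither gene's groups overlapped, with Rxra higher and Smad3 lower in the knockdown lines, and Smad3 did not pass either. Of the 17, both knockdown lines were below every control line for 3 and above for 2. Over all kept probe sets the shares were 10.2% and 12.6%.

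Of 20 genes known as targets of MEIS, PBX or TGIF factors 7 were kept, with 0 past the test in either direction and 0 at an unadjusted p under 0.05 (median log2 difference 0.15). Pax6, an eye and brain regulator that MEIS factors activate, was at 356, 224 and 226 in the control lines and 348 and 345 in the knockdown lines (0.40, SE 0.25). Its knockdown values were inside the control range, at the level of the parental line. Tgfb1, a TGF-beta ligand, was at 83.9, 213 and 194 in the control lines and 179 and 182 in the knockdown lines (0.25, SE 0.39). Its knockdown values were above the parental line but below the empty vector and EGFP knockdown lines.

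The genes whose profile over the 5 lines was nearest to that of Meis1 1450992_a_at were ranked by the root mean square difference of centred log2 signals, where 0 means the same profile. Low signals of these genes in the knockdown lines thus follow from how they were chosen. How many probe sets come as near to a profile of 5 points was not counted, and shared regulation was not tested. The nearest was Dkk1, a secreted Wnt inhibitor, with a distance of 0.12 by probe set 1458232_at, at 2468, 1746 and 2202 in the control lines and 845 and 1179 in the knockdown lines. Its other probe set 1420360_at had a log2 difference of -0.72 between knockdown and control. Coa8, Daam2, Ptprr and Ehd3 followed at 0.14, 0.14, 0.15 and 0.16, each from a probe set that fell under a signal of 40.5 in at least 1 knockdown line. Of the other probe sets, that of Daam2 had a log2 difference of -0.88 and that of Ehd3 -0.11. Coa8 had -0.01 by the bright 1429248_at and -1.04 by 1440183_x_at, whose signals of 4.58 to 53.1 were left out by the filter.

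**Figure D4:**
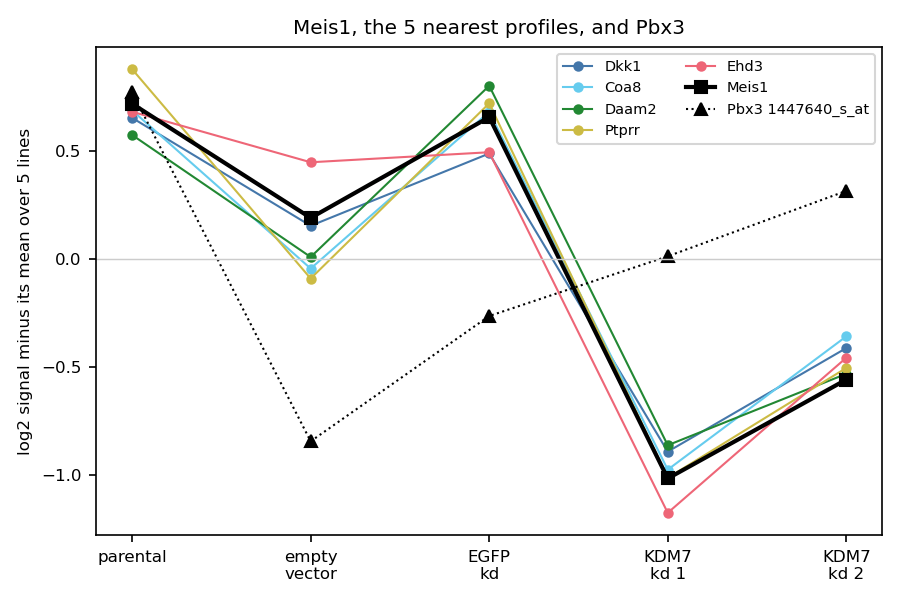
Log2 signal minus its mean over the 5 Neuro2A lines (vertical axis) in each line (horizontal axis) for Meis1 1450992_a_at (black squares), the probe sets of the 5 genes with the nearest profile (colours) and Pbx3 1447640_s_at (dotted), 1 array per point. Meis1 and its 5 neighbours lie below 0 in both knockdown lines, which follows from choosing the neighbours by their likeness to Meis1. Pbx3 is lowest in the empty vector line.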

How the data were processed

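The authors deposited a linear signal intensity for each probe set and array, made with MAS5 per the submitters' processing notes, with a version not given in the sources used here. Their 2% trimmed mean was 500.0 on all 5 arrays, and no detection calls were used. Of 45101 probe sets 64 controls were left out. Log2 was taken without an offset, and the filter kept probe sets whose mean log2 reached the median. Members left out are described with SEs from a fit to all probe sets.

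Limma 3.58.1 in R 4.3.3 (lmFit, eBayes with trend, not robust) was fitted to all 22519 kept probe sets with Benjamini-Hochberg adjustment at 0.05. Knockdown against control left 3 residual degrees of freedom. The other comparisons used models with 3 groups and 2 residual degrees of freedom, where a lone line is assumed to vary like the others. On simulated data the variance model with trend made more false calls than intended, and without trend fewer, and p-values from it are therefore likely too low.

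Named genes are all member probe sets, Kdm7a, for each of the 3 lists of related genes, those past the threshold and the 2 with the largest change by the brightest kept probe set, and the 5 profiles nearest to Meis1. Markers are outside this rule, and those named were chosen after their values were seen. An item of the lists is not reported here. Members and lists were chosen with earlier results of these data known. Gene symbols came from the platform annotation, where 34945 probe sets had 1 symbol, 932 several and 9160 none, and promoters from RefSeq, GRCm38.p6. Alternatives were 3 other normalizations (cyclic loess, quantile, median centring), an offset of 32, no filter or one at the 70th percentile, array weights, variance models with the robust option or without trend, and leaving out each line.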

Additional observations from a re-analysis of the deposited data

Results flagged for a closer look

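For 2 of the 16 kept member probe sets the KDM7 knockdown lines lay on opposite sides of all control lines. The dim Pknox2 1433907_at, left out by the filter, did so too (24.4 and 2.56, with control signals of 2.61 to 9.97). How often all kept probe sets have this pattern was not counted, so the pattern is given only as a description of these members. Pbx2 1418893_at was at 1022 in line 1 and 1345 in line 2, with control signals of 1192 to 1226, a log2 difference of 0.40 (SE 0.27) of line 2 from line 1 and an adjusted p of 1.00 in limma. Pknox1 1450172_at was at 208 and 222, with control signals of 216 to 218, a log2 difference of 0.10 (SE 0.35) and an adjusted p of 1.00 in limma. Neither difference passed the test. Groups of 3 and 2 lines are too small for a check of outlying samples.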

How the results depend on the processing

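No paired analysis was possible because only the KDM7 knockdown lines carry numbers in the labels. Meis1 1450992_a_at had the same direction between knockdown and control in all 14 alternatives, from -1.54 to -1.08. These ends are the differences of knockdown lines 1 and 2 alone. Because Meis1 was chosen on this difference and its groups did not overlap, leaving out a line could not turn its sign. Nor could the offset or array weights, which keep the order of such groups. The filters and variance models leave a log2 difference as it is, at -1.31. Only the other normalizations could have turned the sign, and they gave -1.36 (quantile), -1.42 (median centring) and -1.35 (cyclic loess). The count of 14 is therefore not a measure of robustness. Knockdown against control called 2 probe sets with the filter at the 70th percentile, 2 with trend and robust, 5 with array weights and 0 to 4 with a line left out. In the same comparison small log2 differences turned sign with a line left out, with ranges of -0.0096 to 0.22, -0.17 to 0.19 and -0.13 to 0.080 for Meis2 1417129_a_at, 1447861_x_at and 1457632_s_at, -0.25 to 0.15 for Pbx2 1418893_at, -0.02 to 0.65 and -0.09 to 0.72 for Pbx3 1421193_a_at and 1447640_s_at, -0.084 to 0.45 for Pbx4 1449916_at, -0.23 to 0.10 and -0.061 to 0.037 for Pknox1 1421233_at and 1450172_at and -0.23 to 0.076 for Tgif1. Line 2 against line 1 called 0 after median centring, unfiltered, with the offset and without trend and robust, and 0 to 2 with a line left out. The parental line against the vector-carrying controls called 4 after quantile normalization, 87 after median centring, 6 unfiltered, 4 with the 70th percentile as filter, 0 without trend and robust and 21 to 822 with a line left out, with 0 to 2 members, which were of Pbx3. Median centring moved all log2 differences alike, by -0.11, 0.07 and 0.16 in these comparisons. In the parental comparison median centring turned Meis2 1417129_a_at to 0.0013, Meis2 1457632_s_at to 0.050 and Pknox1 1421233_at to 0.15, and cyclic loess turned the last to 0.053. Signs also turned with a vector-carrying control left out, where the ranges were -0.39 to 0.062 for Meis2 1417129_a_at, -0.81 to 0.0045 for 1440091_at, -0.53 to 0.056 for 1447861_x_at, -0.33 to 0.10 for 1457632_s_at, -0.0093 to 0.032 for Pbx2 1418893_at, -0.083 to 0.39 for Pbx4 1449916_at, -0.20 to 0.18 for Pknox1 1421233_at and -0.0088 to 0.21 for 1437470_at. The cause of these changes was not tested beyond the smaller number of lines. Dim signals limit Meis3, Pknox2 and the other Meis1 probe sets.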
